A study of Drosophila melanogaster with 12 samples.

Results

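The genes described here encode cyclins, cyclin-dependent kinases (Cdks) and enzymes that drive or guard mitosis in *Drosophila melanogaster*. They are *CycB*, *CycB3*, *CycD*, *CycE*, *Cdk1*, *Cdk2*, *Cdk4*, *stg*, *polo* and *Mps1*, taken as a list of names with no threshold on a measured value. The names were chosen with earlier results of these data known, so their counts beside those of all spots are description and no test. Of these 10 genes, 7 were matched by symbol or synonym to 12 spots on the array, of 13164 spots that carry a single gene symbol and 16416 spots in all. *CycE* and *Cdk4* had 3 spots each, *CycB* had 2 and the other 4 genes had 1 each, and *Cdk1*, *stg* and *polo* were not analysed here. The 12 arrays compared wing imaginal discs of 3 mutants with discs of an isogenic line, to describe which genes change when ASH2 or ASH1, trithorax group proteins that help to keep genes active, is lost.

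The mutants were w1118;+;ash2I1 (here ash2-I1), w1118;+;ash2112411 (ash2-112411) and w1118;+;ash122/ash122F2A (ash1-22), and the reference was one RNA pool from discs of the w1118;+;+ line. Every strain, the reference included, carries w1118, and all larvae were at the third instar, staged by bromophenol blue in the food. The X, Y and second chromosomes of the mutants were taken from the reference line, so the third chromosomes, which bear *ash2* and *ash1*, can differ from the reference at other sites too. By the study's description, ash2-I1 and the null ash1-22 die as late larvae or early pupae, ash2-112411 is weaker, and ash2-I1 discs are misshapen and much smaller. Each mutant contributed 2 separate RNA extractions, and 2 arrays with opposite assignments of the dyes Cy5 and Cy3 were made from each.

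Cyclins are regulatory subunits that appear and disappear through the cell cycle and switch on their Cdk partners. CycD with Cdk4 promotes growth and passage through G1, CycE with Cdk2 starts DNA synthesis, and CycB and CycB3 act with Cdk1 in mitosis. The phosphatase String, encoded by *stg*, activates Cdk1, Polo is a kinase with several mitotic tasks, and Mps1 is the kinase that sets the spindle checkpoint, which holds chromosome separation back until every kinetochore is attached. Wing disc cells divide throughout larval life, and *stg* and *CycE* are well known in this tissue as points where patterning signals meet the cycle.

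Values are log2 ratios of mutant over reference, so a value below 0 means less RNA in the mutant discs. A spot was called when its limma p-value, Benjamini-Hochberg adjusted over all spots tested, was under 0.05 and its change was over 1.5-fold. Errors are limma standard errors (SE) over 2 extractions per allele. The spread was pooled over the alleles in which the spot had values and drawn toward the spread of all spots. The reference pool counts as 1 sample throughout. No SE includes its error, which the 3 mutants have in common. As discs were assayed whole, fewer cells in a given phase of the cycle and less RNA per cell cannot be told apart.

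The arrays held between 5804 and 11179 spots with a value, lowest on one ash1-22 array, and between 3 and 12 of the 12 spots of these genes. Arrays of an extraction with exchanged dyes were negatively correlated before their signs were turned, with r between -0.78 and -0.37. Arrays of a mutant with the same dye but different extractions correlated at 0.77 to 0.94. In both *ash2* alleles these values were larger in size than those within an extraction, so arrays alike in dye read closer than arrays of one extraction. The *ash2* spot, a check of the labels, was at -1.75 ± 0.16 in ash2-I1 (extractions -2.10 and -1.40) and -1.62 ± 0.16 in ash2-112411 (-1.77 and -1.48), against 0.26 ± 0.16 in ash1-22 (0.19 and 0.34). The ratios were scaled within each mutant's 4 arrays and not across mutants, and ash2-I1 arrays had a median absolute deviation of 0.28 to 0.38, ash2-112411 arrays of 0.40 to 0.46 and ash1-22 arrays of 0.20 to 0.25.

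*Cdk4*, *Mps1* and *CycB3* had less RNA in *ash2* mutant discs. *Cdk4* fell in both *ash2* alleles by spot 15010 of its 3 spots, *Mps1* fell in both, and *CycB3* fell in ash2-I1. In ash2-I1, 3 of the 6 spots tested fell and 0 rose, where 6.69% of all spots tested fell and 5.38% rose. In ash2-112411, 2 of 12 spots fell and 0 rose, where 8.61% of all spots fell and 8.26% rose. In ash1-22, limma called 0 of 9 spots, where 1.14% of all spots fell and 1.77% rose, and at an unadjusted p under 0.05, 1 of the 7 genes was below 0 and 0 above it by its main spot, the one measured on the most arrays. *Cdk4* spots 15010 and 15500 tied at 10 arrays, and the lower number was taken as the main one. The median over the main spots came to -0.64 for ash2-I1, -0.21 for ash2-112411 and -0.07 for ash1-22, against medians over all genes tested of 0.02, -0.00 and 0.01.

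**Figure D1:**
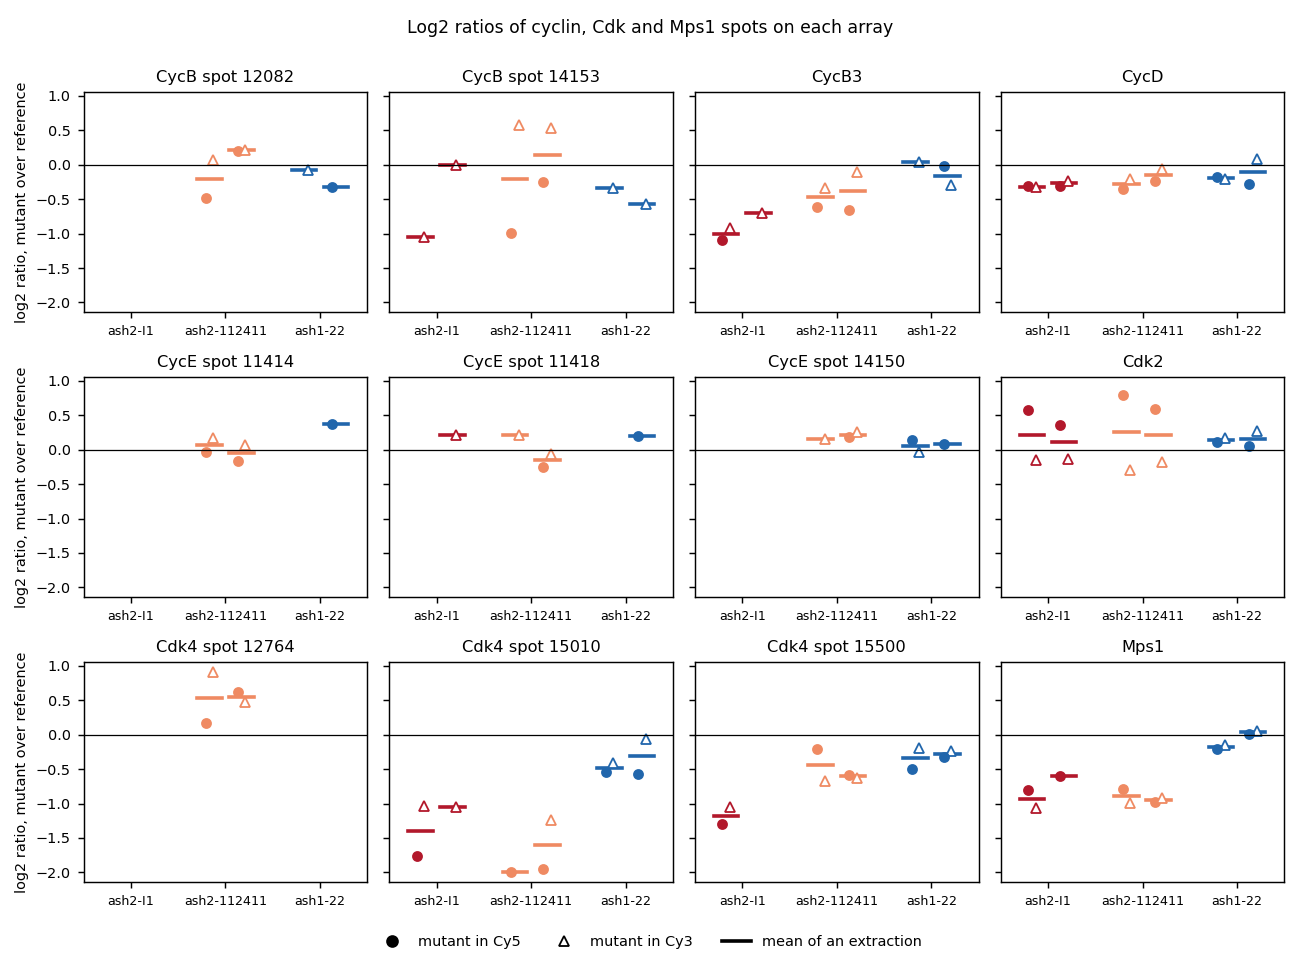
Log2 ratios (mutant over reference, y axis) of the 12 spots on each array, with the 3 mutants along the x axis. Filled circles are arrays with the mutant in Cy5, open triangles arrays with the mutant in Cy3, and bars extraction means. *Cdk4* spot 15010 and *Mps1* lie below 0 on every *ash2* array that measured them, and *Cdk2* splits by dye in both *ash2* alleles.

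Of the mitotic cyclins, *CycB3*, which supports the onset of anaphase in fly embryos, was called in ash2-I1. Its log2 ratio was -1.10 and -0.92 on the arrays of the first ash2-I1 extraction and -0.71 on the one array of the second that measured it. The fit gave -0.86 ± 0.09 (95% interval -1.08 to -0.64, adjusted p = 0.00053), a 1.81-fold fall. In ash2-112411 it read -0.61 and -0.33 in the first extraction and -0.66 and -0.11 in the second, below 0 on all 4 arrays. The mean of -0.43 ± 0.09 passed the adjusted p (0.0078) but not 1.5-fold. In ash1-22 the 3 arrays gave 0.04, -0.02 and -0.30 and lay on both sides of 0, for a mean of -0.06 ± 0.09 (adjusted p = 0.70).

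*CycB*, the cyclin that enters the nucleus with Cdk1 at the start of mitosis, passed the test at neither spot. Spot 14153 was measured in ash2-I1 on 1 array per extraction, both with the mutant in Cy3, and gave -1.05 and 0.00. The extractions thus read far apart, and the mean was -0.52 ± 0.22 (adjusted p = 0.10). In ash2-112411 the same spot read -0.99 and -0.25 with the mutant in Cy5 but 0.58 and 0.53 with the mutant in Cy3. The readings changed sign with the dye in both extractions, and the mean was -0.03 ± 0.22. In ash1-22 only Cy3 arrays measured it, at -0.34 and -0.57 (mean -0.45 ± 0.22, adjusted p = 0.21). Spot 12082 averaged -0.00 ± 0.12 in ash2-112411 and -0.21 ± 0.12 in ash1-22, and had no value in ash2-I1. With a dye term in a fit over all 12 arrays, spot 14153 was at -1.11 in ash2-I1 (adjusted p = 0.020) and -1.04 in ash1-22 (adjusted p = 0.049), past both thresholds. Only ash2-112411 measured this spot with both dyes, so the term rests on its gaps of -1.57 and -0.79. The term itself did not pass in that limma fit (-1.18, adjusted p = 0.16) and could not be checked in the other mutants. These 2 values are thus shifted by ash2-112411 readings and are no separate measure of a fall.

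*Cdk4*, the partner of CycD, held the largest change among these genes, but its 3 spots did not read alike. Spot 15010 was at -1.77 and -1.03 in the first ash2-I1 extraction and at -1.05 in the second. In ash2-112411 it was at -1.998 on the one array of the first extraction and at -1.96 and -1.24 in the second. Each *ash2* array that measured it thus lay at least 2-fold below the reference, past a log2 ratio of -1. The fit gave -1.23 ± 0.12 in ash2-I1 (-1.51 to -0.95, adjusted p = 0.00032), a 2.34-fold fall, and -1.80 ± 0.12 in ash2-112411 (-2.08 to -1.52, adjusted p = 0.00012), a 3.48-fold fall. In ash1-22 all 4 arrays were below 0, at -0.55, -0.41, -0.57 and -0.06, and the mean of -0.40 ± 0.12 was not called (adjusted p = 0.079). This spot read lower with the mutant in Cy5, by 0.73 and 0.72 in the *ash2* extractions measured with both dyes and by 0.14 and 0.51 in ash1-22. The second ash2-I1 extraction rests on Cy3 alone and the first ash2-112411 extraction on Cy5 alone.

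The second *Cdk4* spot, 15500, was also below 0 on every array that measured it. In ash2-112411 it read -0.20, -0.67, -0.59 and -0.63, with a mean of -0.52 ± 0.08 (-0.71 to -0.33) that passed the adjusted p (0.0022) but not 1.5-fold. All 4 arrays measured spot 15500 there and 3 measured spot 15010, so in ash2-112411 the call of *Cdk4* depends on the spot. In ash1-22 it read -0.49, -0.20, -0.32 and -0.23 (mean -0.31 ± 0.08, adjusted p = 0.055). In ash2-I1 only the first extraction gave values, -1.30 and -1.06, so it was not tested there. The third spot, 12764, had values in ash2-112411 alone and lay above the reference on all 4 arrays, at 0.16, 0.90, 0.62 and 0.47, with a mean of 0.54 ± 0.08 (0.35 to 0.73, adjusted p = 0.0028) that did not reach 1.5-fold. The 95% intervals of the 3 spots in ash2-112411 do not overlap one another, and their difference was not tested. For spot 12764 the SE rests on ash2-112411 alone and largely on the spread of all spots. The annotation used here does not say which transcript each *Cdk4* spot targets, so the size of the fall belongs to spot 15010.

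*CycD*, the cyclin that binds Cdk4, changed less and more evenly. It was below 0 on 11 of the 12 arrays, at -0.32, -0.33, -0.30 and -0.24 in ash2-I1, at -0.35, -0.21, -0.23 and -0.06 in ash2-112411 and at -0.18, -0.21, -0.28 and 0.08 in ash1-22. The means were -0.30 ± 0.07 (adjusted p = 0.015), -0.21 ± 0.07 (adjusted p = 0.039) and -0.15 ± 0.07 (adjusted p = 0.21). None reached 1.5-fold.

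Neither gene of the pair that starts DNA synthesis was called. *CycE* spot 14150 read 0.15 in the first extraction of ash2-112411 and 0.19 and 0.25 in the second (mean 0.19 ± 0.07, adjusted p = 0.069), and 0.14, -0.03 and 0.08 in ash1-22 (0.07 ± 0.07, adjusted p = 0.56). The other *CycE* spots averaged 0.01 ± 0.08 and 0.03 ± 0.11 in ash2-112411, and no *CycE* spot had values from both ash2-I1 extractions. A change of *CycE* in ash2-I1 was thus not testable. *Cdk2*, its kinase, was measured on all 12 arrays and averaged 0.16 ± 0.07 for ash2-I1 (adjusted p = 0.10), 0.23 ± 0.07 for ash2-112411 (adjusted p = 0.025) and 0.15 ± 0.07 for ash1-22 (adjusted p = 0.18), in no case past 1.5-fold.

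The *Cdk2* means hide a split by dye in the *ash2* arrays. With the mutant in Cy5 it read 0.57 and 0.36 in ash2-I1 and 0.79 and 0.59 in ash2-112411, and with the mutant in Cy3 it read -0.15 and -0.14 in ash2-I1 and -0.29 and -0.17 in ash2-112411. In ash1-22 the Cy5 arrays read 0.12 and 0.05 and the Cy3 arrays 0.17 and 0.27. The gap between dyes within an extraction was thus 0.50 to 1.08 in the *ash2* alleles and at most 0.22 in size in ash1-22. Over all spots the median size of that gap was 0.13 to 0.39 in an extraction. Its 95th percentile was 0.91 and 0.76 in the ash2-I1 extractions and 1.26 and 0.80 in the ash2-112411 extractions. In each *ash2* extraction the *Cdk2* gap lay above the median and below that percentile. The *Cdk2* dye term did not pass in the limma fit over all arrays (0.47, adjusted p = 0.12). As its sign turned with the dye in *ash2* discs, a value of *Cdk2* from a single dye would not be readable there. *Cdk4* spot 15010 and *CycB* spot 14153 had gaps similar to or larger than those of *Cdk2* in *ash2* discs.

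*Mps1* was below 0 on every *ash2* array that measured it. In ash2-I1 it read -0.81 and -1.07 in the first extraction and -0.60 in the second, for a mean of -0.77 ± 0.10 (adjusted p = 0.0010), a 1.70-fold fall. In ash2-112411 all 4 arrays lay close together, at -0.79, -0.99, -0.98 and -0.93, for a mean of -0.92 ± 0.10 (adjusted p = 0.00040), a 1.89-fold fall. In ash1-22 the arrays read -0.20, -0.15, 0.01 and 0.05 (mean -0.07 ± 0.10, adjusted p = 0.65), and no ash1-22 array overlapped an *ash2* array.

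In ash2-I1 each of the 3 spots that fell lacked 1 of the 4 arrays, always in the second extraction, so that extraction rests on one dye for each of them. For *CycB3* and *Cdk4* spot 15010 the remaining array had the mutant in Cy3, and for *Mps1* in Cy5. With spots measured on all 4 arrays alone, 2 spots could be tested in ash2-I1 and 0 were called.

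**Figure D2:**
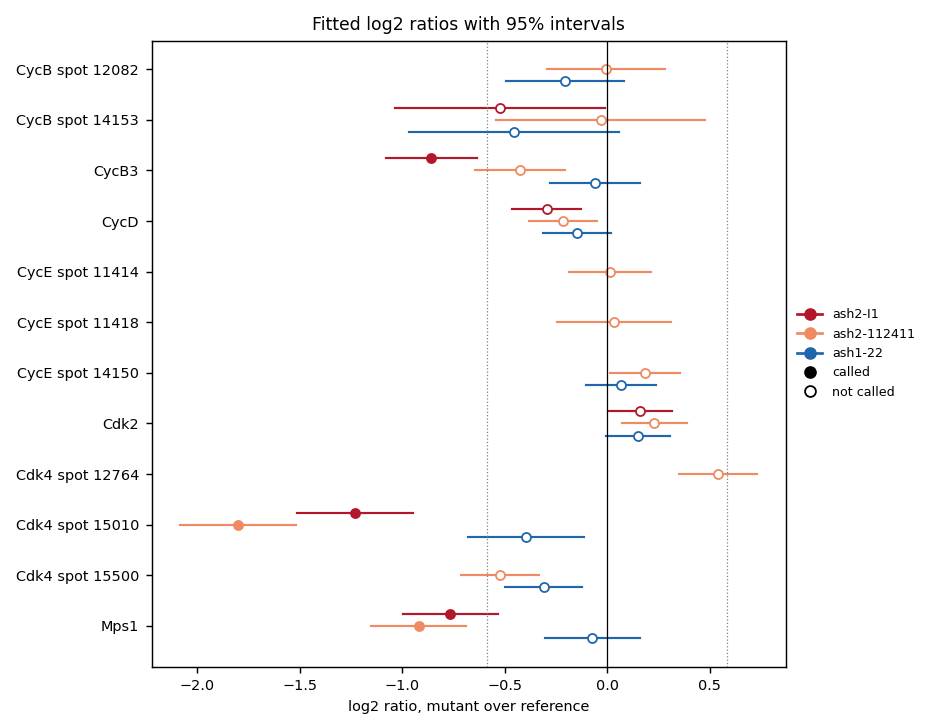
Fitted log2 ratio of mutant over reference (x axis) of each spot (y axis) in the 3 mutants, with 95% intervals. Filled points passed both thresholds, and dotted lines mark 1.5-fold. The 5 filled points all lie below 0, between -1.80 and -0.77, and belong to *CycB3*, *Cdk4* spot 15010 and *Mps1* in *ash2* discs.

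Whether the alleles differed was tested as a difference of their log2 ratios. Between ash2-I1 and ash1-22, 3 of 6 spots were lower in ash2-I1 and 0 higher, where 6.27% of all spots were lower and 6.01% higher. *CycB3* differed by -0.80 ± 0.13 (adjusted p = 0.0064), *Cdk4* spot 15010 by -0.83 ± 0.17 (adjusted p = 0.013) and *Mps1* by -0.69 ± 0.14 (adjusted p = 0.012). Between ash2-112411 and ash1-22, 2 of 9 spots were lower in ash2-112411 and 0 higher, where 5.54% of all spots were lower and 6.18% higher. *Cdk4* spot 15010 differed by -1.40 ± 0.17 (adjusted p = 0.0040) and *Mps1* by -0.85 ± 0.14 (adjusted p = 0.0081), while *CycB3* differed by -0.37 ± 0.13 (adjusted p = 0.080). These differences are also set by the separate scaling of each mutant's arrays. On a common scale *Mps1* differed between ash2-112411 and ash1-22 by -0.59 ± 0.15 (adjusted p = 0.055) and was no longer called. Most of these calls also rest on both extractions of each mutant. Leaving out 1 extraction left 1 to 3 lower spots for ash2-I1 and 1 to 2 for ash2-112411, and of the 5 calls only *Cdk4* spot 15010 in ash2-112411 held each time. For ash2-I1, *CycB3* was lost without the first ash1-22 extraction (-0.70, adjusted p = 0.051), *Cdk4* without the first ash2-I1 one (-0.66, adjusted p = 0.067) or the second ash1-22 one (-0.75, adjusted p = 0.083), and *Mps1* without the same ones (-0.52, under 1.5-fold, and -0.59, adjusted p = 0.089). For ash2-112411, *Mps1* was lost without the second ash1-22 extraction (-0.74, adjusted p = 0.059).

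Between the *ash2* alleles limma called 0 of 6 spots, where 6.22% of all spots were lower in ash2-I1 and 7.85% higher, and at an unadjusted p under 0.05, 1 was lower and 1 higher. *Cdk4* spot 15010 differed by 0.57 ± 0.17, less reduced in ash2-I1 (0.17 to 0.97, adjusted p = 0.040), and *CycB3* by -0.43 ± 0.13, more reduced in ash2-I1 (adjusted p = 0.045), both under 1.5-fold. The *Cdk4* arrays are not balanced by dye here, and with a dye term the difference was 0.24 ± 0.11 (adjusted p = 0.11). For *Mps1* the difference was 0.15 ± 0.14, with an interval of -0.17 to 0.48 that leaves room for a small difference either way. Over the 3 pairs of alleles, *CycD* gave differences of -0.15 to -0.07 with intervals that ran between -0.38 and 0.17, and *Cdk2* gave -0.07 to 0.08 with intervals between -0.29 and 0.30. None of them was called.

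**Figure D3:**
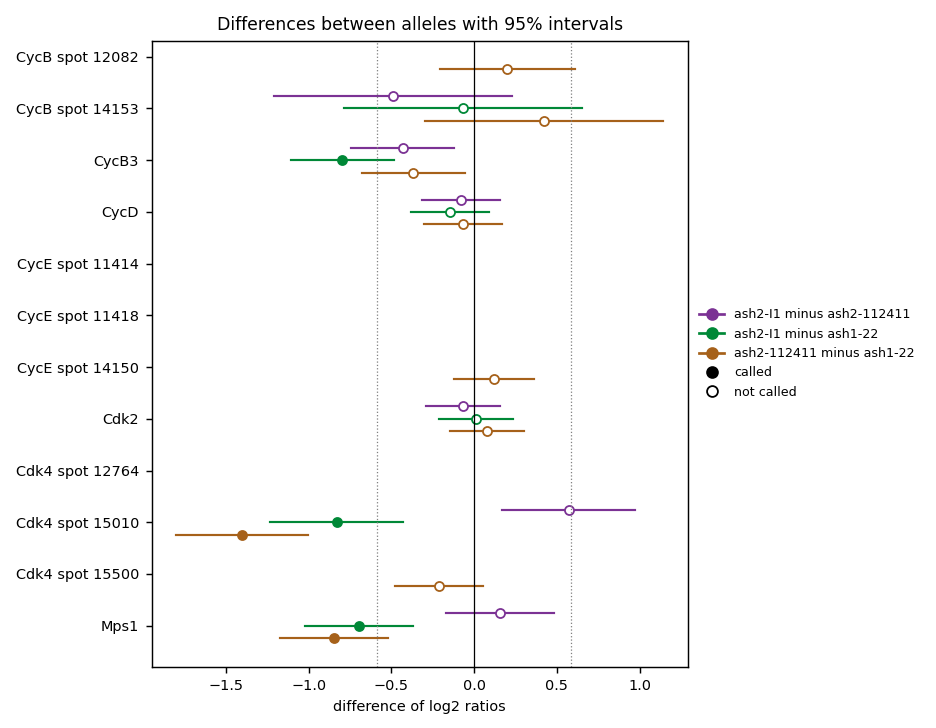
Difference of log2 ratios between alleles (x axis) for each spot (y axis) with 95% intervals. Filled points passed both thresholds. The 5 filled points lie between -1.40 and -0.69, all in comparisons of an *ash2* allele with ash1-22.

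The genes that work with these cyclins and kinases were followed in 10 lists, of which 109 of 137 entries had a spot. The lists were set up by role from general knowledge, with earlier results of these data known, so their counts too are description and no test. By main spots, 19 of 102 genes tested fell in ash2-I1 and 2 rose, where 6.72% of all genes tested fell and 5.45% rose. In ash2-112411, 29 of 105 fell and 4 rose, where 8.58% of all genes fell and 8.36% rose. In ash1-22, limma called 0 of 102, where 1.18% of all genes fell and 1.79% rose. At an unadjusted p under 0.05, 34 were below 0 and 9 above it. No share of all genes at an unadjusted p was taken, here or elsewhere, so such counts have no background beside them. The median over the lists came to -0.19 for ash2-I1, -0.36 for ash2-112411 and -0.10 for ash1-22, and 77, 82 and 74 genes were below 0. Of all genes tested, 45.8%, 50.1% and 48.3% were below 0.

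Genes that restrain or release chromosome separation, the process that Mps1 guards, fell in part. Of all genes tested, 6.72% fell in ash2-I1 and 8.58% in ash2-112411. Of 6 spindle checkpoint genes 2 fell in each *ash2* allele. *Zwilch*, a part of the complex that recruits dynein to kinetochores, read -0.997 ± 0.07 in ash2-I1 and -0.92 ± 0.07 in ash2-112411, against -0.33 ± 0.07 in ash1-22, where it was not called. *Spindly*, its dynein adaptor, fell by 0.60 in ash2-I1 and 0.92 in ash2-112411. Of the anaphase promoting complex and its targets, 2 of 13 genes fell in ash2-I1 and 2 of 14 in ash2-112411. They were *fzy*, the Cdc20 activator, at -0.70 and -0.76, with *pim*, the securin, at -0.82 in ash2-I1 and *vih*, the ubiquitin-conjugating enzyme of the complex, at -0.68 in ash2-112411. The other mitotic and checkpoint kinases had 0 called genes of 11 tested in ash2-I1 and 0 of 10 in each of the other mutants. At an unadjusted p under 0.05, 2 of these kinases were below 0 and 1 above it in ash2-I1, 5 and 1 in ash2-112411, and 4 and 0 in ash1-22. The share of all genes at that p was not taken. *Bub1*, the kinase that acts beside Mps1 at unattached kinetochores, was at -0.06 ± 0.07 in ash2-I1. It was at -0.51 ± 0.07 in ash2-112411 and at -0.30 ± 0.07 in ash1-22.

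Among other cyclins and Cdks, 2 of 11 genes fell in ash2-I1 and 2 of 12 in ash2-112411, and 0 rose. Of all genes tested, 6.72% fell and 5.45% rose in ash2-I1, and 8.58% fell and 8.36% rose in ash2-112411. *CycT*, a subunit of the elongation factor P-TEFb, read -0.59 ± 0.09 in ash2-I1 and -0.94 ± 0.09 in ash2-112411, and *Eip63E*, an ecdysone-induced Cdk-like kinase, -0.59 ± 0.07 and -1.23 ± 0.07. In ash1-22 *CycT* was at -0.25 and *Eip63E* at -0.35, without a call. Among regulators of Cdk activity, 2 of 8 fell and 1 rose in each *ash2* allele, and the 2 Cks genes moved in opposite directions. *Cks85A*, a small Cdk-binding subunit, rose by 0.76 ± 0.07 in ash2-I1 and 1.00 ± 0.07 in ash2-112411, with 0.44 ± 0.07 in ash1-22. *Cks30A*, the other gene of that family, fell instead, at -0.60 and -0.86. *tws*, a regulatory subunit of the phosphatase PP2A that opposes Cdk1, fell to -0.89 in ash2-I1, and *endos*, which inhibits that phosphatase in mitosis, to -1.04 in ash2-112411.

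Of the E2F, Rb and Myb genes, which control cell cycle transcription, 2 of 10 fell in ash2-I1 and 2 of 9 in ash2-112411. The shares of all genes that fell were 6.72% and 8.58%. *Dp*, the E2F partner, was at -0.65 ± 0.09 and -0.82 ± 0.09, and *Rbf2*, a retinoblastoma family protein, at -0.93 ± 0.11 and -0.62 ± 0.11. The gene of this list that rose in ash2-I1, *twit*, does not belong there, since the RefSeq table lists *twit* both as a gene of its own and as a synonym of the complex member *mip130*. Its extractions read 1.68 and 0.31.

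A minority of the genes of chromosome movement and cytokinesis fell in each *ash2* allele, where 6.72% of all genes fell in ash2-I1 and 8.58% in ash2-112411. Of spindle and cytokinesis genes 4 of 14 fell in ash2-I1 and 6 of 15 in ash2-112411, where 1 rose. *pbl*, which cells need for cytokinesis, was at -1.08 ± 0.08 and -1.28 ± 0.08, and *mars*, a spindle protein, at -1.06 ± 0.09 and -1.04 ± 0.09, against -0.28 and -0.31 in ash1-22. *CLIP-190*, a microtubule plus-end protein, rose by 1.53 ± 0.09 in ash2-112411 but was at 0.06 ± 0.09 in ash2-I1. Of kinetochore and passenger genes 2 of 10 fell in ash2-I1 and 5 of 11 in ash2-112411, where 1 rose. *borr*, the borealin of the Aurora B complex, was at -0.95 ± 0.07 and -0.83 ± 0.07, and *Incenp* of that complex fell by 0.66 in ash2-I1. *Nuf2* fell by 0.84 in ash2-112411, where *Cenp-C* and *cal1* of the centromere and *Spc105R* fell by 0.63 to 0.69, and *Spc25* of the same kinetochore complex rose there by 0.96 ± 0.11.

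Of cohesin and condensin genes 2 of 10 fell in ash2-I1 and 4 of 10 in ash2-112411, where 1 rose. For this list and the centrosome list, the shares of all genes that fell were 6.72% in ash2-I1 and 8.58% in ash2-112411, where 8.36% rose. *Cap-G*, a condensin subunit, fell by 0.96 ± 0.09 in ash2-112411 and *SMC1*, a cohesin subunit, by 0.85 ± 0.11, whereas *Nipped-B*, the cohesin loader, rose by 1.27 ± 0.08. The other falls were all in condensin, *glu* and *Cap-D2* in ash2-I1 and *barr* and *Cap-D2* in ash2-112411, by 0.63 to 0.82. Of centrosome genes 1 of 9 fell in ash2-I1 and 4 of 10 in ash2-112411. *Spd-2*, which recruits material around the centrioles, was at -0.66 ± 0.10 and -1.11 ± 0.10. *Cp190* fell by 0.85 ± 0.07 and *Sas-4*, a centriole assembly protein, by 0.84 ± 0.10 in ash2-112411, with *Grip91* of the gamma-tubulin complex at -0.65.

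**Figure D4:**
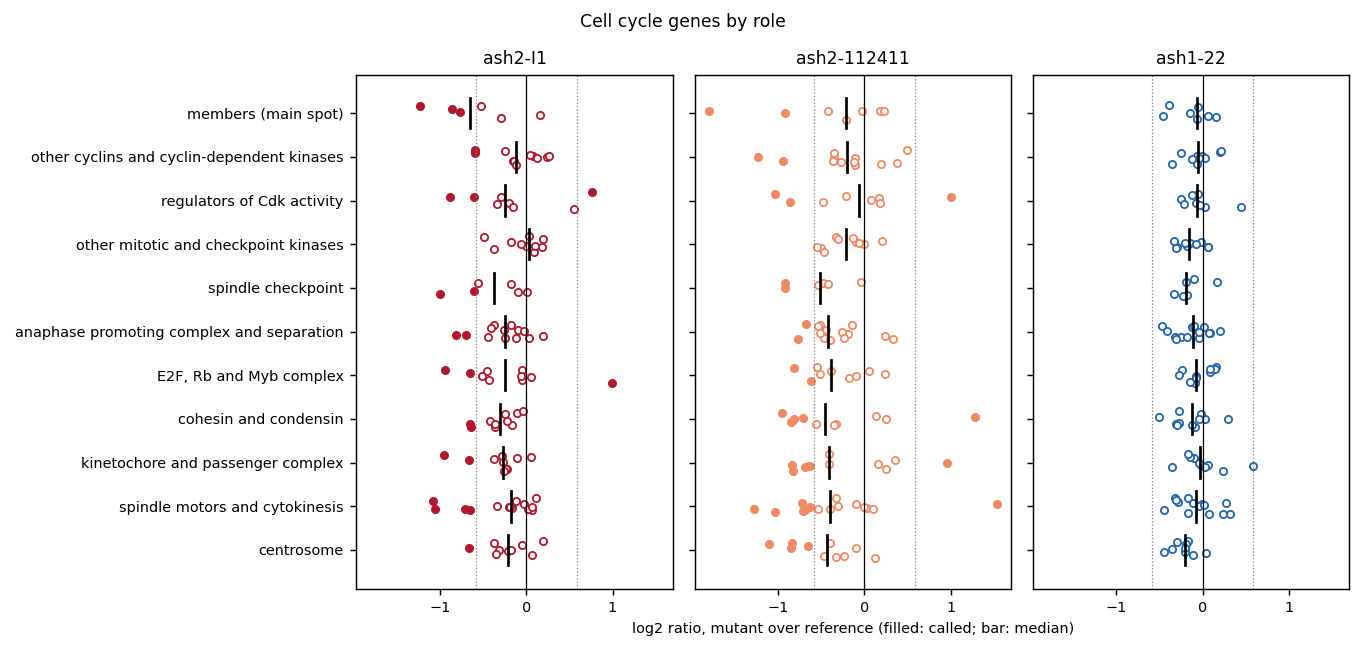
Log2 ratio of mutant over reference (x axis) of the cyclin, Cdk and *Mps1* main spots and of 10 cell cycle lists by role (y axis) in the 3 mutants. Each point is a gene, filled where called, bars are list medians and dotted lines mark 1.5-fold. Called genes of the 10 lists lie mostly below 0 in the *ash2* alleles (19 of 21 in ash2-I1, 29 of 33 in ash2-112411), and ash1-22 has none.

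Marker genes of the wing disc and of other tissues were read as well, and many of the counts rest on few genes. Of all genes tested, 6.72%, 8.58% and 1.18% fell in ash2-I1, ash2-112411 and ash1-22, and 5.45%, 8.36% and 1.79% rose. For a marker too, fewer cells and less RNA per cell cannot be told apart. Of the wing disc marker genes 5 of 8 fell in ash2-I1, 5 of 11 fell and 1, *salm*, rose in ash2-112411, and 3 of 11 fell in ash1-22. *ap*, the selector of dorsal identity, was at -0.90, -1.21 and -0.67 in the 3 mutants in that order, and *en*, the posterior selector, at -1.13, -0.82 and -0.29. Muscle markers were higher for 3 of 8, 3 of 12 and 3 of 11 genes, with *Mlc2* at 2.15, 1.37 and 0.82. The whole muscle list ran at -0.30 to 2.15, -0.31 to 1.37 and -0.13 to 1.67. Of adult muscle precursor markers 0 of 2, 0 of 3 and 0 of 3 were called, with 2, 3 and 1 at an unadjusted p under 0.05, all below 0. Hemocyte markers were higher for 0 of 6, 3 of 8 and 1 of 8 (list range -0.16 to 0.58, -0.32 to 2.42 and -0.08 to 1.21), tracheal markers for 1 of 5, 3 of 5 and 1 of 5 (-0.20 to 1.04, -0.19 to 0.94 and -0.08 to 0.75), and fat body markers for 1 of 3, 1 of 5 and 1 of 3 (-1.76 to 4.01, -0.28 to 3.51 and 1.07 to 1.92). The fat body gene in question was *Tsf1*, the iron-binding transferrin, at 4.01, 3.51 and 1.81. The upper end in ash1-22 comes from its first extraction alone, where *Lsp2*, a larval storage protein, was at 4.18 and *Fbp1*, a fat body protein, at 2.26, against -0.35 and -0.13 in the second. Of nervous system markers *elav* was the one tested in ash2-I1, where it fell, at -0.996. In ash2-112411, 0 of 5 were called, with 4 above 0 at an unadjusted p under 0.05 (*elav* 0.48, *Appl* 0.56, *repo* 0.29 and *nSyb* 0.21), and in ash1-22, 0 of 4 were called, with 1 above 0 by that measure. As ratios these values give no absolute level of any marker, and their part in the changes of the cyclin and kinase genes was not tested.

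The median profile of the 6 genes whose main spot had a value in all 6 extractions ran at -0.97 and -0.43 for ash2-I1, -0.38 and -0.27 for ash2-112411, and -0.19 and -0.13 for ash1-22. Among 5428 other spots, one per gene, those nearest to it by Euclidean distance over the 6 values were *GstE12* (0.241), *Dnaaf5* (0.262), *mub* (0.264), *Galt* (0.272) and *GstO3* (0.276). None of the 5 is in a cell cycle list used here.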

How the data were processed

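Wing disc RNA was hybridized on 12 2-colour oligonucleotide arrays, 4 per mutant, against a common reference pool. The deposited values are the authors' log2 ratios of Cy5 over Cy3. By the study's methods, spots were quantified with GenePix Pro, filtered on quality, background corrected with normexp in limma and normalized with OLIN. The 4 arrays of a mutant were then scaled to each other by the median absolute deviation. This leaves spots without values, and sizes were not made comparable across mutants. Within a mutant the deposited arrays still differ in that deviation, from 0.28 to 0.38 in ash2-I1. Ratio direction was taken from the dyes in the labels, and the sign was turned where Cy3 marked the mutant. Signal over background cannot be read from these values. An SE is taken over extraction means, so it does not widen where an extraction rests on 1 array or 1 dye. *CycB* spot 14153 has an SE of 0.22 with 2 arrays in ash2-I1 and with 4 in ash2-112411. Genes were named from the array annotation, in which 13164 spots have 1 symbol and 101 have several and were left out; 12533 spots matched the RefSeq table (Release 6 plus ISO1 MT) by gene ID, used for names only.

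The 2 arrays of an extraction were averaged, since they share their RNA, and limma 3.58.1 (R 4.3.3; lmFit and eBayes) was fitted to the 6 extractions, with each mutant's mean tested against 0 and differences between mutants tested in the same model. It covered 11610 spots, with a prior of 4.34 degrees of freedom and a prior SD of 0.118. Spots with a value in every extraction had 3 residual degrees of freedom, and spots with gaps had fewer. A spot was tested where both extractions had a value. Whether the extractions came from separate larvae and days is not given beyond their being separate extractions, and p-values measure the spread between them. The extraction numbers did not pair samples across mutants (deviation correlations of 0.09, -0.05 and -0.13). Data were also simulated with 200 of 5634 spots changed by 1 on the log2 scale. By adjusted p alone, without the 1.5-fold threshold, the fit recovered 185 for ash2-I1, 188 for ash2-112411 and 195 for ash1-22. The simulation drew independent normal noise for spots with a value in every extraction. It held no dye effect, no missing values and no error of the reference pool, so it cannot speak to these limits.

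The 10 genes, the lists and the markers were chosen with earlier results of these data known. Every spot of these genes is described. From each cell cycle list, up to 3 genes called in at least 1 mutant with the largest absolute log2 ratio were named. From the marker lists only some genes picked by that rule were named, *ap*, *en*, *Mlc2*, *Tsf1* and *elav*. *Dll*, the wing disc marker with the largest value (-1.44 in ash2-112411, called), was among those left out. *Bub1*, *Cks30A*, *Incenp*, *Cenp-C*, *cal1*, *Spc105R*, *glu*, *Cap-D2*, *barr*, *Grip91*, *salm*, *Lsp2*, *Fbp1*, *Appl*, *repo* and *nSyb* were added after their values were seen. The nearest genes are the 5 with the smallest Euclidean distance to the median profile. Alternatives were a common scale, centring, a dye term, all arrays as replicates, spots on all 4 arrays and other thresholds. A block, leaving out extractions, each mutant fitted alone and the mean over the spots of a gene were also run. No sequence is printed, since none was supplied.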

Additional observations from a re-analysis of the deposited data

Results flagged for a closer look

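In 5 instances the change of a gene differed between 2 mutants by a test of the difference itself (limma, adjusted p under 0.05 and over 1.5-fold). Set against ash1-22, ash2-I1 was lower for *CycB3* (-0.80 ± 0.13), *Cdk4* spot 15010 (-0.83 ± 0.17) and *Mps1* (-0.69 ± 0.14), and ash2-112411 was lower for *Cdk4* spot 15010 (-1.40 ± 0.17) and *Mps1* (-0.85 ± 0.14). The ash1-22 arrays were scaled apart from the others, and these mutants share one reference pool. With 2 extractions per mutant, no single extraction could be tested for standing apart from its group. Of the 5, only *Cdk4* spot 15010 in ash2-112411 was still called whichever extraction was left out, and *Mps1* in ash2-112411 was also not called on a common scale.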

How the results depend on the processing

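The falls of *CycB3* in ash2-I1 and of *Cdk4* spot 15010 and *Mps1* in both *ash2* alleles kept their direction and call at 1.5-fold under each alternative in which the spot could still be tested. With the mean over the spots of a gene, *Cdk4* was still called lower in both *ash2* alleles. In ash2-112411 that mean takes in spots 15500 (-0.52) and 12764 (0.54). The fall was thus smaller there than the -1.80 of spot 15010. Counts of cyclin and kinase spots that fell moved to 0 in ash2-I1 and 1 in ash2-112411 with spots measured on all 4 arrays (2 spots remain testable in ash2-I1), to 1 in each at 2-fold, and to 5 lower and 2 higher in ash2-112411 by adjusted p alone. In ash1-22 the count went to 1 on a common scale (*Cdk4* spot 15010, -0.61). It also went to 1 with a dye term (*CycB* spot 14153, -1.04, with -1.11 in ash2-I1), which for this spot rests on ash2-112411 alone. Between alleles, the count of lower spots became 1 for ash2-I1 minus ash2-112411 with a dye term, 0 for ash2-I1 minus ash1-22 with all 4 arrays, and 1 for ash2-112411 minus ash1-22 on a common scale or with all 4 arrays. Of the cell cycle list genes, 12 fell in ash2-I1 with all 4 arrays, 1 rose there under centring, a dye term, 4 arrays as replicates or all 4 arrays, 17 fell in ash2-112411 on a common scale, and 5 fell and 2 rose in ash1-22 on a common scale. The common scale also took the whole table in ash1-22 to 352 spots lower and 332 higher, against 99 and 153, and in ash2-112411 to 426 and 488, against 896 and 860. Leaving out an extraction gave 3 to 4 lower spots for ash2-I1, 2 to 3 for ash2-112411 and 0 for ash1-22, and 17 to 19, 29 to 32 and 0 lower list genes, with 1 to 2, 4 and 0 higher. Between alleles it gave 0 to 1 lower and 0 to 1 higher for ash2-I1 minus ash2-112411, 1 to 3 lower for ash2-I1 minus ash1-22, and 1 to 2 lower for ash2-112411 minus ash1-22.

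Signs turned only for values that were never called, apart from *CycB* spot 14153 in ash2-I1, which ran from -1.05 (called) to 0.0011 over the extractions left out. In ash2-112411 *CycB* spot 14153 ranged over -0.21 to 0.14 when an extraction was left out, *CycB* spot 12082 over -0.21 to 0.21 (0.021 under centring), *CycE* spot 11414 over -0.045 to 0.073, and *CycE* spot 11418 over -0.15 to 0.22 (-0.028 with 4 arrays as replicates, -0.10 with a dye term). In ash1-22 *CycB3* ranged over -0.16 to 0.041 (0.0091 without array 3, chosen after seeing the data) and *Mps1* over -0.18 to 0.033. The *Mps1* difference between the *ash2* alleles ranged over -0.017 to 0.32 and was -0.030 on a common scale. With the extraction number as a block, the count of lower spots stayed 3 for ash2-I1, 2 for ash2-112411 and 0 for ash1-22, and no other count changed by over 1.5 times. The cause of these shifts was not tested. The number of arrays behind a spot is a limit, as 6 of 12 spots could be tested in ash2-I1 and 9 in ash1-22.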
